A study of Homo sapiens with 2 samples.

Results

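The genes described here encode the folding, quality control and degradation machinery of the endoplasmic reticulum (ER), with the sensors that watch over it. They were chosen by name from a list of 39 genes, and 38 of them had at least 1 probe set annotated to that gene alone, out of 18392 such genes on the array. SYVN1 had no such probe set here, so it has no signal below and enters only the search of promoters. PC3 is a human cell line from a metastasis of prostate cancer. PC3 cells given 10 µM fluphenazine, a phenothiazine antipsychotic, were compared with PC3 cells given the solvent DMSO, with 1 Affymetrix array for each treatment. How long the cells were treated is not stated in the labels. They name a labelling kit for whole transcripts, while the probe sets are those of an array read towards the 3' ends, and how the kit was fitted to this array is not stated.

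Proteins bound for the secretory pathway are threaded into the ER, folded by chaperones, glycan-binding lectins and disulfide-forming enzymes, and, if folding fails, drawn back into the cytosol and degraded. When unfolded proteins pile up, the membrane sensors IRE1 (encoded by ERN1), PERK (encoded by EIF2AK3) and ATF6 start the unfolded protein response. IRE1 splices the mRNA of the transcription factor XBP1, ATF6 is cut to free a transcription factor, and PERK phosphorylates the initiation factor eIF2, which restrains translation and favours synthesis of ATF4. The spliced and unspliced forms of XBP1 mRNA cannot be told apart in these values.

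Every value below is a log2 signal of 1 array, and every difference is fluphenazine minus DMSO. With 1 array per treatment there was no spread between cultures and no test. As a guide to noise within the arrays, probe sets of the same gene gave differences with a pooled SD of 0.13 over 3668 genes. That SD does not contain the variation between cultures. An expression floor was set at 6.19, so that the brighter genes of the array, ranked by their higher value and split at the median, lay above it. This left 9196 genes and 37 members. The probe set with the highest mean signal stood for its gene.

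All 7 markers of PC3 and epithelial identity examined lay above this floor, while 10 of 12 measured markers of blood, endothelial, stromal and liver cells lay under it. The exceptions were COL1A1 and PECAM1. Of 4 measured androgen-dependent prostate markers, KLK2 and ACP3 lay under it and KLK3 and TMPRSS2 above it. KRT8 (9.28 with fluphenazine and 9.70 with DMSO) and VIM (8.26 with fluphenazine and 8.74 with DMSO) were lower on the fluphenazine array. All 24 probe sets of the poly-A spike-ins, bacterial transcripts added before labelling, were lower on the fluphenazine array as well, by a median of -0.22. The 9196 genes had a median difference of -0.01. The part of labelling, hybridization or culture state in the differences below was not tested.

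ER genes were higher on the fluphenazine array by small amounts, unevenly across roles. Of the 37 members above the floor, 28 had a difference above 0, or 75.7%, against 48.2% of all genes above the floor. The median over the members was 0.09, or 1.07-fold, and the range ran from -0.29 for HSP90B1 to 0.59 for DNAJB9. A 1.2-fold difference, in either direction, is used as the threshold of size below. By that measure 8 members, or 21.6%, were higher, against a background of 4.84%, and HSP90B1 alone, or 2.70%, was lower, against 4.69%. The 8 were DNAJB9, SEC24D, HERPUD1, ERN1, EIF2AK3, ERO1B, ATF6 and ERO1A. ERO1B reached the floor only on the fluphenazine array, and without it, among genes above the floor on both arrays, 7 of 36 members, or 19.4%, were higher, against 4.35% of genes. With a floor on the mean of both arrays, added after the data were seen, the 8 members were the same, against 4.61% of genes. DNAJB9 alone reached 1.5-fold, which 0.283% of all genes did. By rank, 14 of the 37 lay in the highest 10% of genes by difference and 1 in the lowest 10%, while 18 lay within 0.1 of 0.

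Values near the threshold of size were close together. ERO1A (0.2632) and ATF6 (0.2672) were just inside it and HSPA5 (0.2569) and UGGT1 (0.2366) just outside. The count also depended on how probe sets were combined. With the mean over those probe sets of a gene that reached the floor, 6 of 37 members (16.2%) were higher, against 3.98% of genes, since ERO1A came to 0.16 and ATF6 to 0.13, and no member was lower, since HSP90B1 came to -0.24. With the mean over all probe sets, dim ones included, 2 of 35 members (5.71%), DNAJB9 and EIF2AK3, were at least 1.2-fold higher, against 3.56% of genes, which is close to the background. Over single probe sets, 48 of the 76 that reached the floor were higher, or 63.2%, against 47.2% of all probe sets of named genes that reached it. Of the 22 members with at least 2 such probe sets, 10 had all of them on one side of 0 and 12 had them on both sides.

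**Figure D1:**
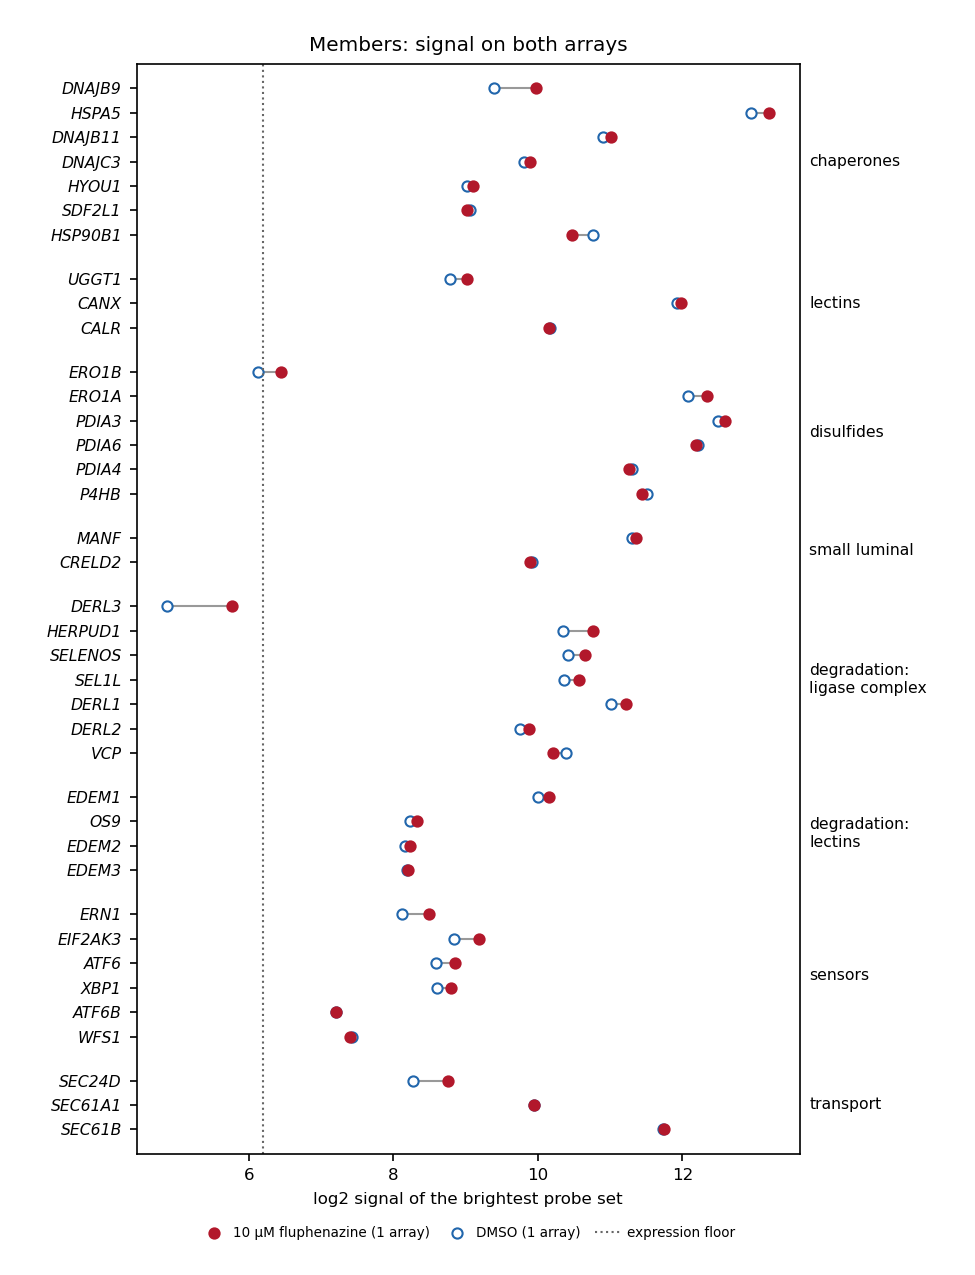
Log2 signal of the brightest probe set of each of the 38 members on the fluphenazine array (filled) and the DMSO array (open), grouped by role, with 1 array each and no error bars. DERL3 lies wholly under the dotted expression floor of 6.19, and the open and filled points of most folding enzymes nearly coincide, whereas those of DNAJB9, HERPUD1, SEC24D, ERN1 and EIF2AK3 are apart.

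The promoters of many ER genes carry the ER stress response element (ERSE), CCAAT and CCACG separated by 9 bases of any kind, which the general factor NF-Y and cleaved ATF6 or spliced XBP1 are known to bind. A related form, ERSE-II, is ATTGG and CCACG separated by 1 base. RefSeq promoter windows (GRCh38.p14), from 250 bases before to 50 bases after an annotated start, were found for 35 of the 39 listed genes and searched on both strands. ERSE was found in 8 of the 35 genes, or 22.9%, against 0.0916% of all 27305 genes with a window and 0.0769% of all 35116 windows. ERSE-II was found in a further 3 genes, or 8.57%, against 0.0696% of all genes. Many ER genes are known to carry such elements, so the higher share in a list of ER genes is not an independent result. The 9 ERSE sites of members are shown here from the member with the highest difference to that with the lowest, each read along the element with its fixed letters in capitals.
ERO1B: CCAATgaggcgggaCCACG (chr1:236282183-236282201, plus strand)
HSPA5: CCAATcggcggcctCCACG (chr9:125241391-125241409, minus strand)
XBP1: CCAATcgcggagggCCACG (chr22:28800603-28800621, minus strand)
CANX: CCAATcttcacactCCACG (chr5:179698778-179698796, plus strand)
CALR: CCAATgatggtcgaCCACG (chr19:12938384-12938402, minus strand)
CRELD2: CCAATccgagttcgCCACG (chr22:49918554-49918572, minus strand)
PDIA6: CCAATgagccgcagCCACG (chr2:10812853-10812871, minus strand)
HSP90B1: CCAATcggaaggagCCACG (chr12:103930216-103930234, plus strand)
HSP90B1: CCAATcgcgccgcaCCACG (chr12:103930321-103930339, minus strand)
The 4 ERSE-II sites follow in the same order.
HERPUD1: ATTGGgCCACG (chr16:56932025-56932035, plus strand)
HYOU1: ATTGGaCCACG (chr11:119057274-119057284, plus strand)
HYOU1: ATTGGaCCACG (chr11:119057380-119057390, plus strand)
SDF2L1: ATTGGtCCACG (chr22:21642114-21642124, minus strand)

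The differences of members with and without these elements are described without a test. Left out for lack of a window were SEC24D (0.48), DERL1 (0.20) and PDIA3 (0.09), all above the floor. The 8 genes with ERSE had a median difference of 0.02, with 4 above 0, and the 26 members above the floor with a window and no ERSE had a median of 0.09, with 21 above 0. With ERSE-II counted too, 6 of 11 genes with an element and 19 of 23 without were above 0, at medians of 0.05 and 0.10. These counts rest in part on the signs of differences near 0. With ERSE, CALR (-0.02), CRELD2 (-0.02) and PDIA6 (-0.03) lay within the SD of 0.13 between probe sets of a gene. So did members without an element that were just above 0, among them SEC61B (0.00) and ATF6B (0.01). Allowing 1 mismatch gave 15 of 35 genes with ERSE, against 1.89% of all genes, and medians of 0.06 over the 14 of them with a counted value and 0.10 over the 20 without. The UPRE (TGACGTGG), which XBP1 and ATF6 bind, was in the windows of HYOU1, where it overlapped an ERSE-II site, and VCP, against 0.927% of all genes. The ATF4 composite element (TGATGNAAT) was in no member's window and in those of 1.22% of all genes. A match is only a match of letters, and its absence says only that these letters are not in this window.

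**Figure D2:**
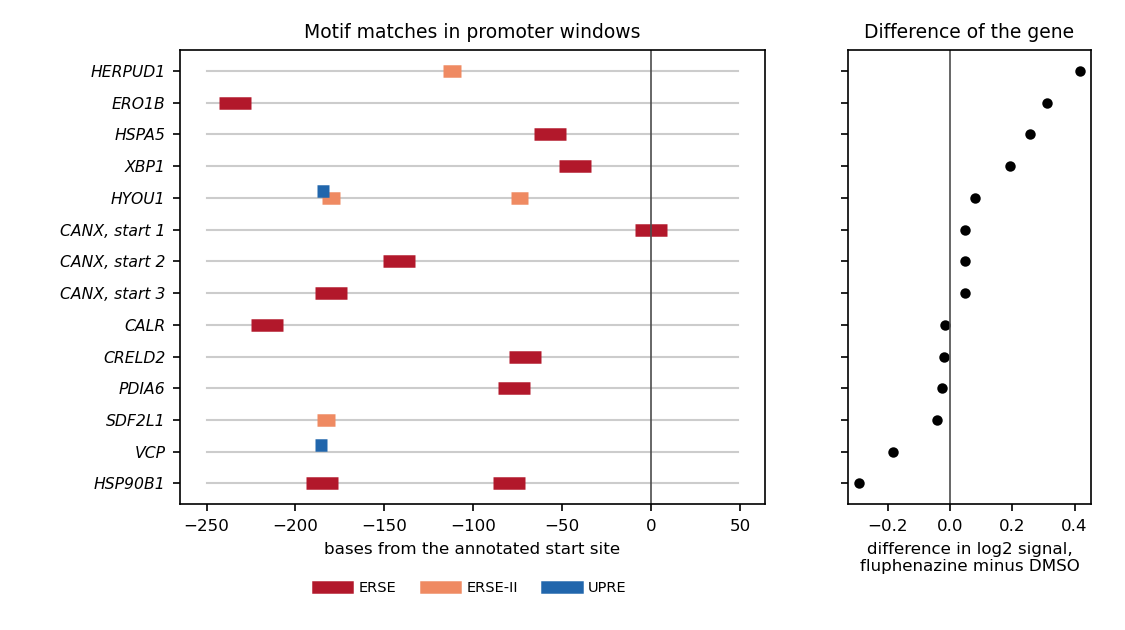
Left, places of ERSE, ERSE-II and UPRE matches in the promoter windows of the members that have any, in bases from the annotated start site, with a line per window and start sites of CANX apart. Right, the difference of the same gene, from HERPUD1 at 0.42 on top to HSP90B1 at -0.29 at the bottom, which has 2 ERSE sites.

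Full windows are given for 4 genes, to set the elements beside the results. HSPA5 and HSP90B1 are chaperones with ERSE and differences of opposite sign, HERPUD1 has ERSE-II, and DNAJB9, the member with the highest difference, has none of the motifs in its window. Capitals mark the fixed letters of ERSE or ERSE-II, which read CGTGG and ATTGG where an ERSE lies on the opposite strand, as the second one of HSP90B1 does. The windows lie at chr9:125241294-125241593 (minus strand) for HSPA5, chr16:56931892-56932191 (plus) for HERPUD1, chr7:108569624-108569923 (plus) for DNAJB9 and chr12:103930160-103930459 (plus) for HSP90B1, and are written in the direction of transcription.
HSPA5: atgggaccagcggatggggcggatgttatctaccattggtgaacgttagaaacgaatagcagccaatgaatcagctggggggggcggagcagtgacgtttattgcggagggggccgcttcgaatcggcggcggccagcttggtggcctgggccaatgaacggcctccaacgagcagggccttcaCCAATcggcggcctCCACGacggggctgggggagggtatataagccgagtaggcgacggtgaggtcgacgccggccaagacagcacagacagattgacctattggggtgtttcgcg
HERPUD1: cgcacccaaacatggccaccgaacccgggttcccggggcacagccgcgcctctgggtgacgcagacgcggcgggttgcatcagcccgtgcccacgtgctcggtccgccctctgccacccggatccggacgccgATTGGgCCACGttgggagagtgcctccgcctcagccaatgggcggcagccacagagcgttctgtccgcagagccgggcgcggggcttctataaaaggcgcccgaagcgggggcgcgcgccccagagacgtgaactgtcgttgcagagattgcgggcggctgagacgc
DNAJB9: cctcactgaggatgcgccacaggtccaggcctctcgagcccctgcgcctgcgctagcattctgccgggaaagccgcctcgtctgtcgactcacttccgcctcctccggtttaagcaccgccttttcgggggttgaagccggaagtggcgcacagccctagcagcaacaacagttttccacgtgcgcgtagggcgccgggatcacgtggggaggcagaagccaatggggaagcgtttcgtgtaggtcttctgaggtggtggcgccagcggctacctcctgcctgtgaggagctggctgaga
HSP90B1: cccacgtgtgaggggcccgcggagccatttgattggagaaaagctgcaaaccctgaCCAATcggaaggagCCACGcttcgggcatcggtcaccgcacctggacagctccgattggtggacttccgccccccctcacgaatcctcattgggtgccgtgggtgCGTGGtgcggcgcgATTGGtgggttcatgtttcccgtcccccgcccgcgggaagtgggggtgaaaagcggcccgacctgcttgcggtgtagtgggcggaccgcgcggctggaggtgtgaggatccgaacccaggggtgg

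Among the chaperones, a co-chaperone and BiP were higher and the HSP90 of the ER was lower. HSPA5 encodes BiP, the HSP70 chaperone of the ER that also holds the sensors inactive. Its log2 signal was 13.20 with fluphenazine and 12.95 with DMSO (difference 0.26, 1.19-fold), and its second probe set gave 0.27. DNAJB9 (ERdj4) is a J-domain co-chaperone of BiP that also keeps IRE1 in check, and its signal was 9.98 with fluphenazine and 9.39 with DMSO. Its 3 probe sets gave 0.59, 0.84 and 0.91, all above 0, and the brightest one put it at percentile 99.7 of the genes above the floor. HSP90B1 encodes GRP94, the ER member of the HSP90 family, and its signal was 10.47 with fluphenazine and 10.76 with DMSO. Its second probe set gave -0.18, and both are of a design whose probes can also match other sequences, so this gene is uncertain. The brightest probe sets of CALR, PDIA6, OS9 and DERL3 are of the same design.

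The other chaperones of this group differed little. DNAJB11 (ERdj3), another co-chaperone, had 11.01 with fluphenazine and 10.90 with DMSO. DNAJC3 (p58IPK), a co-chaperone also known as an inhibitor of PERK, had 9.89 with fluphenazine and 9.80 with DMSO, but its next 2 probe sets gave -0.26 and -0.19. HYOU1 (GRP170), which exchanges the nucleotide of BiP, had 9.10 with fluphenazine and 9.02 with DMSO. SDF2L1, a partner of the co-chaperones, had 9.02 with fluphenazine and 9.06 with DMSO. Across the 7 genes the median was 0.09, with 5 above 0 and 1 past the threshold of size in each direction.

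The lectin chaperones, which hold glycoproteins during folding, were nearly level by their brightest probe sets. CANX (calnexin) had 11.98 with fluphenazine and 11.93 with DMSO, and CALR (calreticulin) had 10.15 with fluphenazine and 10.17 with DMSO. The other probe sets of CALR, also above the floor, gave 0.23 and 0.06. UGGT1, the enzyme that marks misfolded glycoproteins for a further round, had 9.02 with fluphenazine and 8.78 with DMSO (0.24). Its 4 probe sets above the floor spread from -0.26 to 0.24, on both sides of 0, so its direction rests on the choice of probe set.

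In disulfide formation the oxidases were higher by their brightest probe sets and the isomerases were nearly level. ERO1A and ERO1B pass electrons from disulfide isomerases to oxygen. ERO1A had 12.34 with fluphenazine and 12.08 with DMSO, and all 3 of its probe sets were above 0, from 0.09 to 0.26, with a mean of 0.16. ERO1B had 6.44 with fluphenazine and 6.13 with DMSO, where it was under the floor, so the floor itself favoured a positive difference, and its dimmer probe set gave 0.04. The isomerases themselves, PDIA3, PDIA4, PDIA6 and P4HB, lay between -0.07 and 0.09. PDIA3 had 12.59 with fluphenazine and 12.49 with DMSO. PDIA6 had 12.19 with fluphenazine and 12.22 with DMSO. These differences are smaller than the SD between probe sets of a gene. PDIA4 had 11.27 with fluphenazine and 11.30 with DMSO, and P4HB had 11.44 with fluphenazine and 11.51 with DMSO. All probe sets of PDIA4 and of P4HB were slightly below 0.

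MANF and CRELD2, small luminal proteins known to be induced by ER stress, were level. MANF had 11.35 with fluphenazine and 11.30 with DMSO, and CRELD2 had 9.89 with fluphenazine and 9.91 with DMSO.

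**Figure D3:**
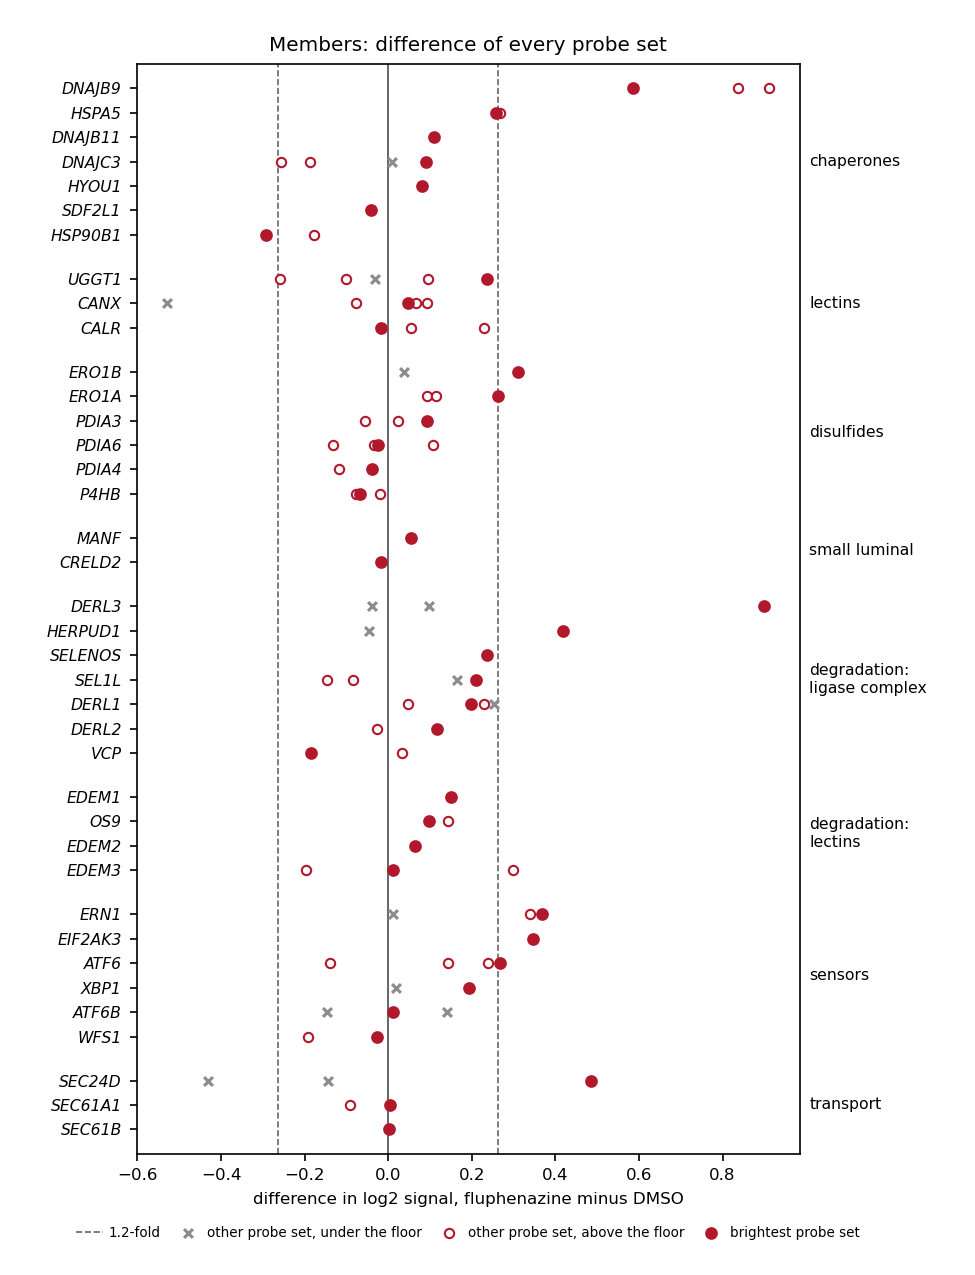
Difference in log2 signal, fluphenazine minus DMSO, for all 92 probe sets of the 38 members, with the brightest probe set of a gene filled, others above the floor open and those under the floor as crosses, and the 1.2-fold threshold dashed. All 3 probe sets of DNAJB9 lie right of the threshold, while 12 members, among them UGGT1, EDEM3 and ATF6, have probe sets above the floor on both sides of 0.

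For the ligase complex of degradation, 5 of its 6 genes above the floor, or 83.3%, were higher, against 48.2% of all genes. The median was 0.20. HERPUD1, a membrane protein that helps assemble the ligase complex, had 10.76 with fluphenazine and 10.34 with DMSO (0.42, 1.34-fold), while its only other probe set, far under the floor, gave -0.05. SELENOS, a selenoprotein that recruits VCP to the membrane, had 10.66 with fluphenazine and 10.42 with DMSO (0.24) on a single probe set. SEL1L, the adaptor of the ligase, had 10.57 with fluphenazine and 10.36 with DMSO (0.21), but its next 2 probe sets gave -0.15 and -0.08. The derlins form part of the channel through which substrates leave. DERL1 had 11.22 with fluphenazine and 11.02 with DMSO, and all 4 of its probe sets were above 0. DERL2 had 9.87 with fluphenazine and 9.76 with DMSO. DERL3 had 5.76 with fluphenazine and 4.86 with DMSO, both under the floor, so its difference of 0.90 was not counted, and its other 2 probe sets gave 0.10 and -0.04. VCP, the ATPase that pulls substrates out and that also serves many other pathways, lay the other way, at 10.21 with fluphenazine and 10.39 with DMSO (-0.18). Its second probe set gave 0.03. With probe sets above the floor averaged, the median of the group was 0.10.

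The proteins that pick out glycoproteins for degradation differed by less. EDEM1, a mannosidase-like protein, had 10.16 with fluphenazine and 10.00 with DMSO (0.15). Its relatives EDEM2, at 8.23 with fluphenazine and 8.16 with DMSO, and EDEM3, at 8.20 with fluphenazine and 8.19 with DMSO, were closer to level. OS9, the lectin that hands trimmed glycoproteins to SEL1L, had 8.33 with fluphenazine and 8.23 with DMSO. All 4 genes were above 0, against 48.2% of all genes above the floor. Their median was 0.08 and none was past the threshold of size. The 3 probe sets of EDEM3 ranged from -0.20 to 0.30.

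The sensors had the highest median of any role, 0.23. At least 1.2-fold higher were 3 of 6 members, or 50%, against 4.84% of all genes above the floor. Of these, ATF6 passed by its brightest probe set alone, and it came to 0.13 with its probe sets averaged. ERN1 had 8.49 with fluphenazine and 8.12 with DMSO (0.37, 1.29-fold), and its second probe set above the floor gave 0.34. EIF2AK3 had 9.18 with fluphenazine and 8.84 with DMSO (0.35, 1.27-fold) on its only probe set. ATF6 had 8.85 with fluphenazine and 8.59 with DMSO (0.27). Its other probe sets gave 0.24, 0.14 and -0.14, so they did not share a direction. XBP1 had 8.80 with fluphenazine and 8.61 with DMSO (0.19). ATF6B, the relative of ATF6, was level at 7.21 with fluphenazine and 7.20 with DMSO. WFS1 (wolframin), an ER membrane glycoprotein that restrains ATF6, had 7.40 with fluphenazine and 7.43 with DMSO, and its second probe set above the floor gave -0.19. By their brightest probe sets, the genes of IRE1, PERK and ATF6 and the factor XBP1 were higher on the fluphenazine array, while ATF6B and WFS1 were not.

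In transport, SEC24D was higher and the translocon subunits were level. SEC24D, a cargo-binding subunit of the COPII coat, had 8.76 with fluphenazine and 8.27 with DMSO (0.48). Only this probe set reached the floor, and the 2 dim ones, at or below 4.17, gave -0.43 and -0.14, so that the mean over all of them was -0.03. SEC61A1 and SEC61B, subunits of the channel through which proteins enter the ER, differed by 0.00 each. SEC61A1 had 9.95 with fluphenazine and 9.94 with DMSO, and SEC61B had 11.74 on both arrays.

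Other ER genes were taken from 7 further lists, 136 of whose genes lay above the floor. The larger differences were those of the outputs of PERK. Of 15 genes of that list above the floor, 14, or 93.3%, were higher, against 48.2% of all genes above the floor. At least 1.2-fold higher were 7, or 46.7%, against 4.84% of all genes, and the median was 0.20. Like the other lists, it was chosen with earlier results of these data known. DDIT3 (CHOP), a transcription factor of prolonged ER stress, had 8.60 with fluphenazine and 7.64 with DMSO. ATF3, a related stress factor, had 8.17 with fluphenazine and 7.38 with DMSO, and PPP1R15A (GADD34), which reverses the phosphorylation of eIF2, had 7.20 with fluphenazine and 6.60 with DMSO. DDIT3, ATF3 and PPP1R15A each rest on 1 probe set that reached the floor. ATF4 itself, at 12.24 with fluphenazine and 12.10 with DMSO, and TRIB3, a pseudokinase induced by it, at 11.97 with fluphenazine and 11.76 with DMSO, differed by 0.13 and 0.20. EIF2S1, the phosphorylated subunit of eIF2, was at -0.08 and EIF2B5, of its exchange factor, at 0.05. EIF2S1 and EIF2B5 belong to the eIF2 machinery itself and are not outputs, but they were counted in this list. The outputs in the list also answer to other kinases of eIF2.

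The remaining 6 lists differed little in size. Of their 121 genes above the floor, 73, or 60.3%, were higher, against 48.2% of all genes above the floor. Their median was 0.05, against -0.01 for all genes. Only 3, or 2.48%, reached 1.2-fold higher, against 4.84% of all genes. None was 1.2-fold lower, against 4.69% of all genes. Those 3 were SEC23B (0.30), a partner of SEC24D in the COPII coat, SVIP (0.28), a small inhibitor of degradation that binds VCP, and FAM8A1 (0.27), a component of the ligase complex. The probe sets of SVIP spread from -0.05 to 0.28 and those of SEC23B from 0.00 to 0.30, and FAM8A1 had a single one. SEC23A followed at 0.26, while SEC24C (-0.12) and SEC13 (-0.11) lay lowest in the COPII list, whose median was 0.05.

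Folding factors outside the main list had a median of 0.08 over 23 genes, with the oxidoreductase TMX3 at 0.22, the translocon-bound co-chaperone SEC63 at 0.21, ERP29 at -0.13 and the collagen chaperone SERPINH1 at -0.25. Other degradation factors had a median of 0.07 over 21 genes, with the VCP cofactor UFD1 at -0.21 (10.06 with fluphenazine and 10.26 with DMSO) and TMUB1 at -0.21. The translocon list had a median of 0.06 over 20 genes, with the receptor subunit SRPRB at 0.22, SSR1 at 0.20, and SSR4 and TRAM2 at -0.07 each. N-glycan genes had a median of 0.02 over 24 genes, with the mannosyltransferase ALG2 at 0.18 and GFPT1, the entry enzyme of hexosamine synthesis, at 0.18, against ALG3 at -0.17 and the mannosidase MAN1B1 at -0.17. Partners of the sensors had a median of -0.02 over 13 genes, with the transcription factor CREB3L2 at 0.13, NFYB, a subunit of the factor NF-Y, at 0.10, BAX at -0.15 and CREB3L4 at -0.21. Probe sets above the floor lay on both sides of 0 for SEC63 (-0.11 to 0.29) and SRPRB (-0.10 to 0.35). The same held for SSR1 (-0.02 to 0.20) and NFYB (-0.09 to 0.10).

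**Figure D4:**
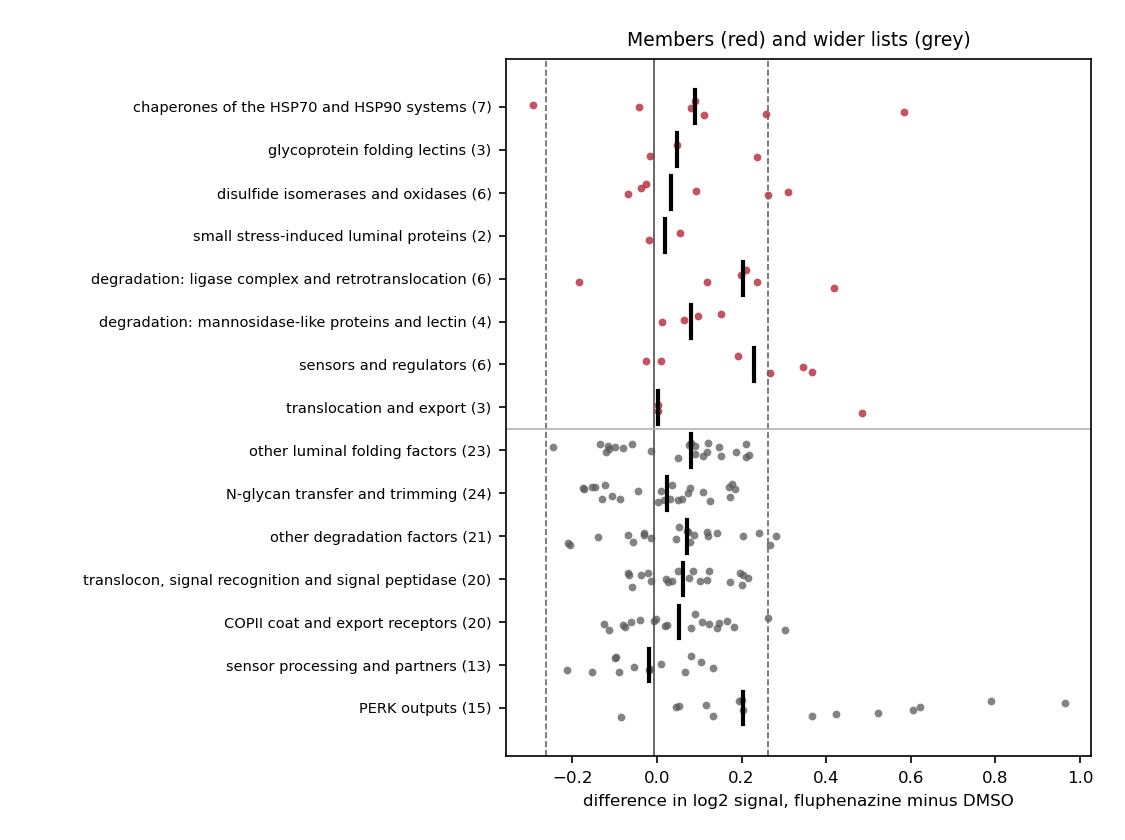
Difference in log2 signal, fluphenazine minus DMSO, of each gene above the floor, for the 8 role groups of the members (red) and 7 wider lists (grey), with black bars at the medians, dashed lines at 1.2-fold and a thin line at the median of all 9196 genes. The number of genes is in parentheses, and the sensors (0.23), the ligase complex (0.20) and the outputs of PERK (0.20) have medians right of the other lists.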

How the data were processed

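Total RNA of PC3 cells was labelled and hybridised to 1 array per treatment. The authors' deposited log2 values, 1 per probe set, ran from 1.60 to 14.28. RMA is named per the submitters' processing notes, beside Transcriptome Analysis Console 3.1 and Affymetrix Expression Console 1.4, and the sorted columns differed by at most 0.13. Such values show a gene only relative to the others on its array, and the number of arrays limits the precision. Of 47693 probe sets, 37145 had 1 gene in the platform annotation of 2016, and symbols were updated through the gene identifier. Probe sets with several genes were left out. Members, lists, floor and thresholds were chosen with earlier results of these data known. Every member is named, and of each wider list the 2 highest and 2 lowest genes, with DDIT3, ATF4, PPP1R15A, TRIB3 and ATF3. Differences were computed and tested on simulated data with Python 3.11.15, numpy 2.4.6 and pandas 2.3.3. Alternatives were other scalings, floors, thresholds and combinations of probe sets. The mean of probe sets above the floor and a floor on the mean of both arrays were added after the data were seen. Protein sequences were not used here.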

Additional observations from a re-analysis of the deposited data

How the results depend on the processing

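No paired analysis was possible because each treatment has 1 array. Centring the arrays on the median added the same 0.007 to every gene, and a floor only selects genes, so neither could change one member against another. Quantile normalization moved no member by more than 0.13 on the log2 scale, but the sorted columns already differed by at most 0.13. Averaging all probe sets moved 7 of 35 members by more than 0.13, and averaging those above the floor moved 5 of 37. The 35 leave out SEC24D and ATF6B, which fell under the floor when averaged. SEC24D came to -0.03 from 0.48. The median over the members, 0.092, was 0.055 under both kinds of averaging. The count of members at least 1.2-fold higher, 8 of 37 (4.84% of all genes), was 2 of 35 with all probe sets averaged (3.56%), 15 at 1.1-fold (16.6%) and 1 at 1.5-fold (0.283%). The count of members lower, 1, was 0 under both kinds of averaging, 2 at 1.1-fold (18.2% of genes) and 0 at 1.5-fold (0.294%). The median of the disulfide genes was -0.026 with the stricter floor and without ERO1B. That of the ligase complex genes was 0.11 with all probe sets averaged and 0.10 with those above the floor averaged. That of the mannosidase-like genes was 0.15 with the stricter floor, which left 1 of them. The sensors had a median of 0.13 with all probe sets averaged, over 5 genes, and 0.16 with those above the floor averaged. Their median was 0.31 with the stricter floor, which left 4 of them and dropped ATF6B and WFS1. The share of genes with ERSE was 42.9% with 1 mismatch allowed, against 1.89% of all genes. The cause of the shifts with averaging was not tested.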
